A study of Mus musculus with 6 samples.

Results

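Cxcl12, its 2 receptors Cxcr4 and Ackr3, and 5 further chemokine genes of tissue cells (Cxcl14, Ccl2, Ccl7, Cx3cl1 and Cxcl16) were followed in RNA sequencing libraries of mouse dental epithelial cells. All 8 genes were found by symbol among the 24959 genes of the deposited count table, and 7 of the 8, all but Ccl7, had enough reads to be tested. The set was chosen by the Cxcl12 counts of these same libraries, which were higher with the Pkm deletion, so every difference between the groups in these 8 genes is given as a description and not as a test. The 6 libraries fell into 3 from mice with a conditional knockout (cKO) of Pkm, which encodes the M-type pyruvate kinases, and 3 wild-type controls, all taken at postnatal day 0. The sources used here do not give the strain, the Cre driver, the deleted exon or whether tissue was pooled. The labels call the replicates biological without saying whether each was a separate animal, and p-values therefore cover only the variation among these libraries.

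Chemokines are small secreted or membrane-bound proteins that guide cell movement through G protein-coupled receptors. Cxcl12 is made mainly by stromal, perivascular and endothelial cells and holds or attracts cells that carry Cxcr4. Ackr3 binds the same ligand without classical G protein signaling and removes it by internalization. In developing organs the pair of receptors shapes the gradient of Cxcl12, which is best known for homing of blood progenitors, vessel patterning and neuronal migration.

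Depth was 30588350 to 39085792 counts in the cKO libraries and 38130829 to 39415700 in the controls. Pkm stood at 309, 395 and 350 CPM (counts scaled to library size, with TMM factors) in cKO replicates 1 to 3, against 1281, 1185 and 1049 CPM in control replicates 1 to 3. On the first principal component, which held 51.3% of the variance, cKO replicate 3 lay at 93.2, the other cKO libraries at 5.13 and 19.1, and the controls at -52.2 to -25.3. Over all 15930 tested genes, edgeR's quasi-likelihood test called 0.552% at a Benjamini-Hochberg adjusted p under 0.05, 0.345% higher and 0.207% lower in cKO. At an unadjusted p under 0.05 edgeR gave 17.5% of all genes, and at an adjusted p under 0.05 DESeq2 called 7.02% and limma-voom 0.0126%. The groups did not overlap for 23.3% of genes, 11.2% with cKO above and 12.2% with cKO below.

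The upstream sequences of Cxcl12, Cxcl14 and Ackr3 are printed because these are the 3 genes of the set whose groups did not overlap, the first pair with cKO above and Ackr3 with cKO below. Each is the 250 bases before the RefSeq transcript start in build GRCm38.p6, which is not the build the counts were made on. They are written 5′ to 3′ on the gene's strand, with capitals for the GC box GGGCGG and the TATA motif TATAAA on either strand. Cxcl12 lies at chr6:117168285-117168534 on the plus strand, Cxcl14 at chr13:56296552-56296801 on the minus strand and Ackr3 at chr1:90203730-90203979 on the plus strand.
Cxcl12: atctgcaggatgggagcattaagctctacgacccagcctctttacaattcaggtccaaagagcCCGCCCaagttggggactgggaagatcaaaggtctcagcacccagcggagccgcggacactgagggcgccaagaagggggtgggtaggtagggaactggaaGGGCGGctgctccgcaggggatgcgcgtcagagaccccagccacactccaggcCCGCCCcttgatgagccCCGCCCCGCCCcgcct
Cxcl14: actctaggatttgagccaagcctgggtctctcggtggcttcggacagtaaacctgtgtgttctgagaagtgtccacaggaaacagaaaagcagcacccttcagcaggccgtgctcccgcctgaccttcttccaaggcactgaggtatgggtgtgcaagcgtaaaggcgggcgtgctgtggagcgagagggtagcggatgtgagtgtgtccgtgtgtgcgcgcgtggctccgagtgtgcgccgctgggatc
Ackr3: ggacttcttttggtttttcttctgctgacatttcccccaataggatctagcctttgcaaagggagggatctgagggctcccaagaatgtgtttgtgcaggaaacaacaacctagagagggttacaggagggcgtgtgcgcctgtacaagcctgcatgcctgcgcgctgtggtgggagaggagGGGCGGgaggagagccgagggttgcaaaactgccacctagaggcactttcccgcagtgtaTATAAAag

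RefSeq promoter windows were at hand for 5 of the 8 genes. The Cxcl12 window held 5 matches of the GC box, 4 of them within the last 86 bases before the start, and no TATA match. The Cxcl14 window held 0 of both, and the Ackr3 window 1 of each. Of 32851 mouse windows of the same length, 32.7% held a GC box and 12.4% the TATA motif. The cores of the hypoxia-response element, ACGTG and GCGTG, were searched on both strands. ACGTG was in none of the 3 windows (16.6% of all windows hold it). GCGTG was found 2 times upstream of Cxcl14, 1 time upstream of Ackr3 and 0 times upstream of Cxcl12 (28.2% of all windows). A degenerate NF-kappaB motif matched 1 time upstream of Cxcl12, overlapping a GC box, and 0 times upstream of Cxcl14 and Ackr3 (45.8% of all windows). These are letter matches in a short window and were not related to the levels that follow.

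Cxcl12 stood at 51.9, 26.9 and 77.7 CPM in cKO replicates 1 to 3, against 12.8, 11.5 and 12.2 CPM in control replicates 1 to 3. The lowest cKO library lay above the highest control. The mean was 52.2 ± 25.4 CPM in cKO and 12.2 ± 0.679 CPM in control libraries (SD, n = 3 each). Its log2 fold change was 2.10 (SE 0.340), past 1, as it was for 7.46% of all tested genes, while 3.33% lay below -1. By size of fold change Cxcl12 was 311th from the top of the 15930 tested genes.

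The cKO libraries differed among themselves in Cxcl12 more than the controls did. The highest cKO library held 2.89 times the lowest, and the highest control 1.12 times the lowest. Replicate 3, which stood apart from the other libraries on the first component, had the highest Cxcl12 level. Without it the log2 fold change was 1.71, and without cKO replicate 2, the lowest of the group, it was 2.42. Cxcl12 was the 1 of the 7 tested genes of the set that edgeR called, beside 0.345% of all genes called in that direction. Since Cxcl12 chose the set, nothing is read from that count. The call was absent when any 1 of the control libraries was left out, where edgeR called 0 genes in all (1532, 1766 and 2495 at an unadjusted p under 0.05 without control replicates 1, 2 and 3). It was also absent with limma-voom and in edgeR without robust estimation, which each called 2 genes, while DESeq2 kept it among 1118.

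Cxcr4, the signaling receptor of Cxcl12, stood at 4.10, 4.94 and 5.81 CPM in cKO libraries and at 4.25, 5.31 and 4.18 CPM in controls. The groups overlapped, and the control with the highest value lay above 2 of the 3 cKO libraries. Its log2 fold change was 0.11 (SE 0.297), and it was -0.01 without cKO replicate 3.

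Ackr3, the scavenging receptor, stood at 131, 124 and 121 CPM in cKO replicates 1 to 3 and at 160, 163 and 171 CPM in control replicates 1 to 3. The groups did not overlap, and the libraries of each group lay close together, with a mean of 125 ± 5.50 CPM in cKO and 164.7 ± 5.94 CPM in controls (SD, n = 3 each). The log2 fold change of -0.39 (SE 0.132) ran from -0.43 to -0.35 over the 14 alternatives. EdgeR did not call it. The cKO means of ligand and scavenger lay on opposite sides of the control means, Cxcl12 above and Ackr3 below.

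**Figure D1:**
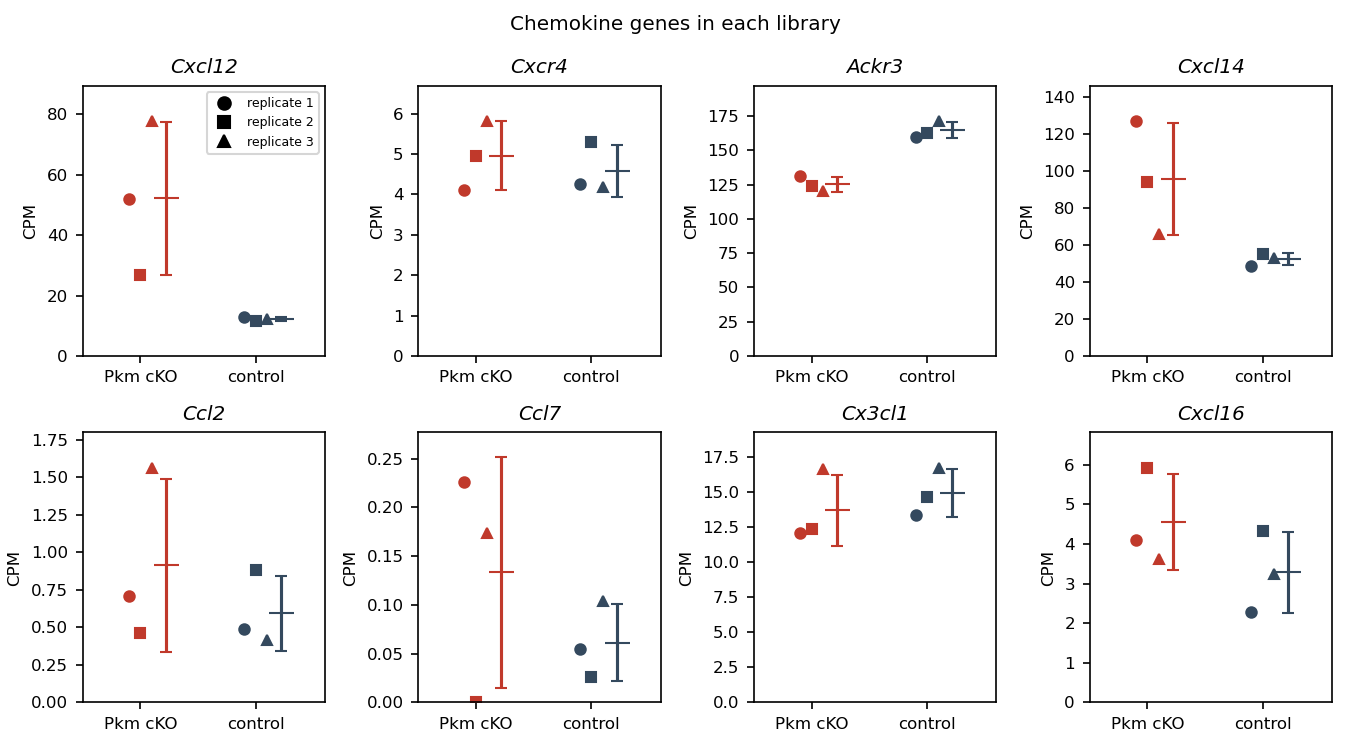
CPM of each of the 8 genes in the 3 Pkm cKO (left, red) and 3 control (right, dark) libraries, each axis starting at 0, with the mean and SD beside the points and a marker shape for each replicate. Cxcl12 and Cxcl14 have all cKO libraries above the controls, Ackr3 has all of them below, and the other 5 genes overlap.

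Cxcl14, a chemokine of epithelia and fibroblasts whose receptor is not settled, stood at 127, 94.2 and 66.0 CPM in cKO replicates 1 to 3 and at 48.7, 55.4 and 53.1 CPM in control replicates 1 to 3. The groups did not overlap. The mean was 95.7 ± 30.5 CPM in cKO and 52.4 ± 3.41 CPM in control libraries (SD, n = 3 each). Its log2 fold change was 0.87 (SE 0.220). The order of the cKO libraries was not that of Cxcl12: replicate 3 was the lowest for Cxcl14 and the highest for Cxcl12. The ratio of Cxcl12 to Cxcl14 CPM was accordingly 0.409, 0.286 and 1.18 in cKO replicates 1 to 3, against 0.263, 0.207 and 0.230 in controls. EdgeR did not call Cxcl14 in the comparison of all 6 libraries and called it without cKO replicate 3, where its log2 fold change was 1.09.

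Ccl2 and Ccl7 attract monocytes through Ccr2 and were near the limit of detection. Ccl2 had 22, 16 and 63 reads in cKO libraries (0.711, 0.465 and 1.56 CPM) and 18, 34 and 16 reads in controls (0.490, 0.880 and 0.415 CPM). The groups overlapped, and the log2 fold change of 0.62 (SE 0.598) was -0.01 without cKO replicate 3. Ccl7 had 7, 0 and 7 reads in cKO libraries and 2, 1 and 4 in controls, too few to test. The 0 in cKO replicate 2 allows up to 0.0872 CPM, a limit of 3 reads that covers counting error only. No fold change is given for Ccl7, since 3 of the 6 libraries held fewer than 3 reads.

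Cx3cl1 and Cxcl16 are the 2 chemokines made as membrane proteins with a stalk, which can tether cells or be shed. Cx3cl1 stood at 12.1, 12.4 and 16.6 CPM in cKO libraries and at 13.3, 14.6 and 16.7 CPM in controls. The groups overlapped (log2 fold change -0.12, SE 0.218). Cxcl16 stood at 4.10, 5.93 and 3.63 CPM in cKO libraries and at 2.29, 4.32 and 3.24 CPM in controls, also with overlap (0.47, SE 0.364). In the RefSeq annotation Cx3cl1 and Cxcl16 each overlap 1 other gene, Gm51543 and Zmynd15, and the sources used here do not say whether counting used strand, so their levels may hold reads of those genes.

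Levels were compared between genes after division by length. With the merged exon length of the GENCODE M21 annotation, Ackr3 averaged 37.4 ± 1.64 CPM per kilobase in cKO and 49.2 ± 1.78 in control libraries (SD, n = 3 each). Cxcl14 averaged 52.4 ± 16.7 CPM per kilobase in cKO and 28.7 ± 1.87 in controls. Ackr3 was first in every control library and Cxcl14 in every cKO library, although in cKO replicate 3 they were nearly equal, at 36.0 CPM per kilobase for Ackr3 and 36.1 for Cxcl14. Cxcl12 averaged 6.38 ± 3.11 CPM per kilobase in cKO and 1.49 ± 0.0831 in controls, which placed it 3rd in cKO and 5th in control libraries. Cxcr4 averaged 2.74 ± 0.472 CPM per kilobase in cKO and 2.53 ± 0.350 in controls, and Cx3cl1 averaged 3.49 ± 0.648 in cKO and 3.79 ± 0.436 in controls. Ccl2 and Ccl7 were the lowest by mean in both groups. Among neighbours in the order, the library ranges overlapped in cKO for Cxcl14 and Ackr3, Cxcl12 and Cx3cl1, Cx3cl1 and Cxcr4, and Cxcl16 and Ccl2. In controls they overlapped for Cxcl12 and Cxcl16 and for Cxcl16 and Ccl2.

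The order at the top and in the middle depends on the length used, since transcripts of a gene differ in length. With the longest, the shortest and the mean coding transcript length, Ackr3 stayed first in controls, and Cxcl16, Ccl2 and Ccl7 stayed 6th, 7th and 8th in both groups. With the mean and shortest coding lengths Ackr3 was also first in cKO libraries, and Cxcl12 was 4th in controls. With the shortest coding length Cxcl12 was 4th in cKO libraries too, so its rank did not differ between the groups. The coding transcripts of Cxcl12 run from 1878 to 5627 bases.

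**Figure D2:**
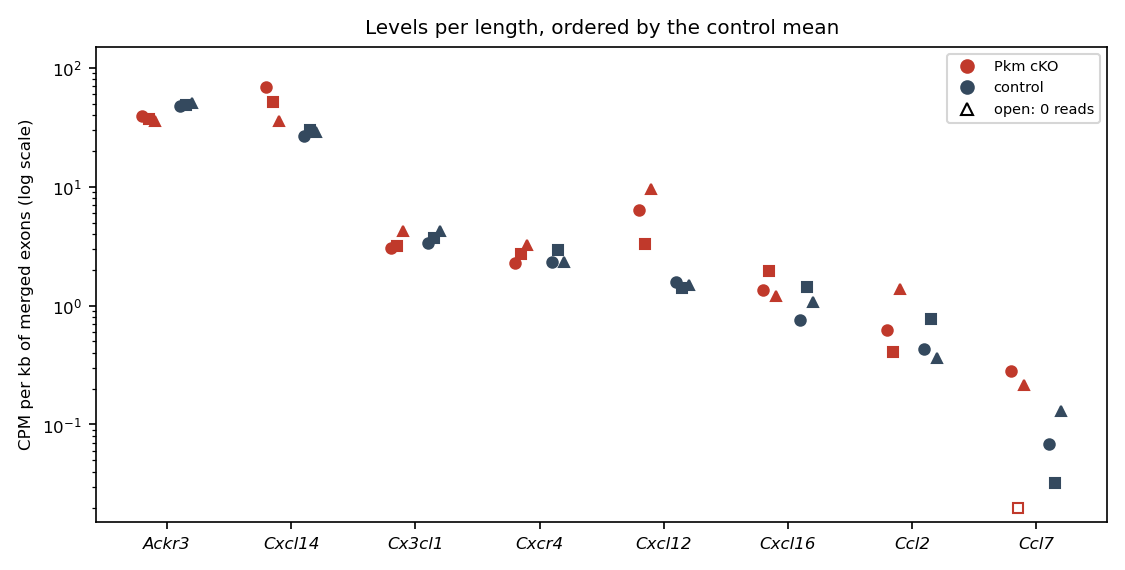
CPM per kilobase of merged exons (log axis) of the 8 genes in Pkm cKO (red, left of each pair) and control (dark) libraries, ordered by the control mean, with 1 marker per library. Ackr3 and Cxcl14 lie above the rest in all 6 libraries, Cxcl12 has its cKO points above its controls, and the open square marks the cKO library with 0 Ccl7 reads.

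Of the 7 tested genes of the set, 5 had a log2 fold change above 0, against 50.8% of all tested genes. Their median was 0.47, against 0.01 for all tested genes. The untested Ccl7 is not in these counts. Because the set was chosen for Cxcl12, these values describe it and support nothing.

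The other chemokine ligands and receptors were read from lists of 13 CXC and XC ligands, 19 CC ligands and 21 receptors. Of these 53 genes, 44 were in the table and 14 had enough reads to be tested. The other 9 are not analysed here. EdgeR called 0 of the 14, with 4 at an unadjusted p under 0.05, against 17.5% of all tested genes. DESeq2 called 4, against 7.02% of all tested genes, and limma-voom 0. Their median log2 fold change was 0.29.

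The 4 that DESeq2 called, all higher in cKO libraries, are ligands and a scavenging receptor typical of platelets, myeloid cells and vessels. Pf4, platelet factor 4, stood at 9.46, 2.47 and 7.92 CPM in cKO libraries and at 1.17, 1.76 and 1.97 CPM in controls (log2 fold change 2.01, SE 0.495, edgeR adjusted p 0.0952). Ccl9, a mouse CC ligand of myeloid cells, stood at 13.7, 1.98 and 5.31 CPM in cKO libraries and at 1.39, 1.79 and 0.960 CPM in controls (2.34, SE 0.645, edgeR adjusted p 0.125). For both, cKO replicate 2 was the lowest of its group, just above the controls, and without it edgeR called both.

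Ccl21a, a ligand of lymphatic vessels and lymph node stroma, had 9, 22 and 240 reads in cKO libraries and 6, 11 and 0 in controls. Most of its reads thus lay in cKO replicate 3. Ccl21a has near-identical copies, so its reads may have been divided between them. Ackr1, a chemokine-binding receptor of venules and red cells, had 34, 26 and 112 reads in cKO libraries and 7, 15 and 20 in controls (log2 fold change 2.07, SE 0.640, edgeR adjusted p 0.145). Its groups did not overlap.

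Further receptors of these ligands were read beside Cxcr4 and Ackr3. Ccr1, which binds Ccl7 and Ccl9, stood at 4.52, 0.668 and 1.81 CPM in cKO libraries and at 1.42, 1.04 and 0.493 CPM in controls. Ccr2, the receptor of Ccl2 and Ccl7, had 20, 0 and 2 reads in cKO libraries and 5, 7 and 1 in controls, too few to test. Cx3cr1, the receptor of Cx3cl1, stood at 1.74, 2.24 and 1.61 CPM in cKO libraries and at 2.15, 2.54 and 1.19 CPM in controls, with overlap. Ccr2 and Cx3cr1 were named as receptors of the set's ligands, outside the naming rule.

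**Figure D3:**
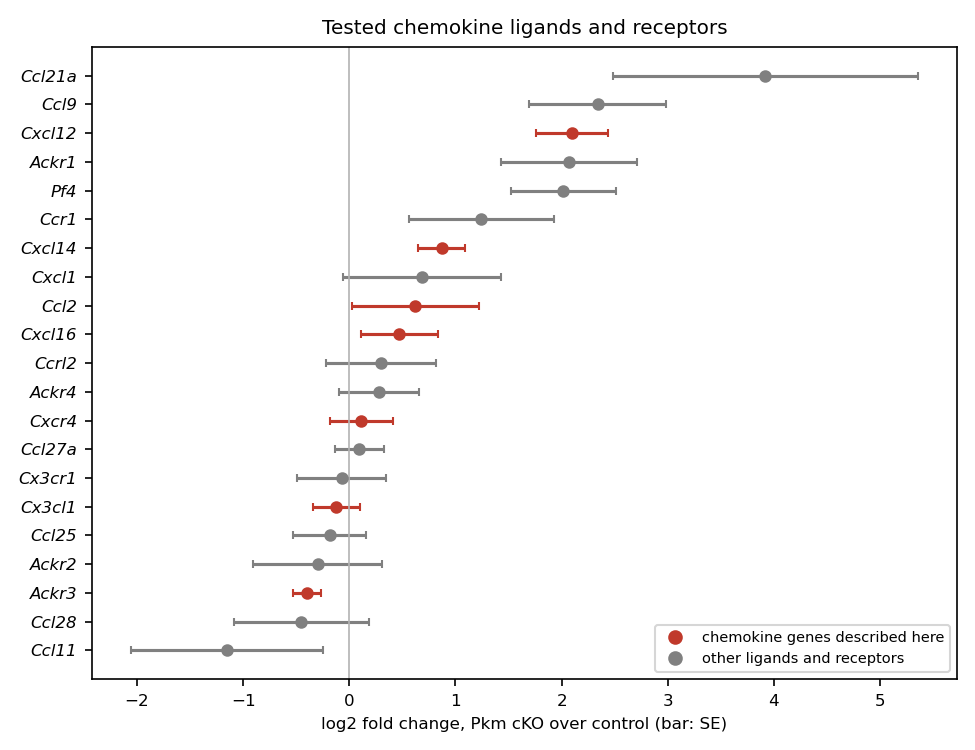
Log2 fold change of Pkm cKO over control with its SE for the 21 tested chemokine ligands and receptors, the 7 tested genes of the set in red and 14 others in grey. Cxcl12 (2.10) lies near Ackr1 (2.07) and Pf4 (2.01), below Ccl21a (3.92, SE 1.43) and Ccl9, and Cxcr4 (0.11) lies near 0.

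Genes that process or retain chemokines were all measured. Of 12 tested, edgeR called 1, Mmp2, beside 0.552% of all genes. Mmp2, a gelatinase that can cut the N terminus of Cxcl12, rose to 267, 198 and 348 CPM in cKO libraries, against 94.2, 108 and 126 CPM in controls (log2 fold change 1.31, SE 0.213, edgeR adjusted p 0.0444). Without cKO replicate 3 its adjusted p was 0.0379, and without control replicates 1, 2 and 3 it was 0.258, 0.209 and 0.167. Mmp9, another gelatinase, stood at 568, 187 and 557 CPM in cKO libraries and at 141, 55.6 and 85.4 CPM in controls, with no overlap, and edgeR did not call it (log2 fold change 2.22, SE 0.548, adjusted p 0.135). It was named after its values were seen. Dpp4, a peptidase that also inactivates Cxcl12, was also named after its values were seen. It stood at 25.7, 28.2 and 25.1 CPM in cKO libraries and at 11.6, 21.0 and 16.5 CPM in controls, and edgeR did not call it (adjusted p 0.179). Adam10 and Adam17, the proteases that shed Cx3cl1 and Cxcl16, had log2 fold changes of -0.35 (SE 0.137) and 0.05 (SE 0.141), neither of them called. They too were picked after their values were seen.

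Of 22 genes that carry chemokine receptor signals, 21 were tested and edgeR called 0, with 4 at an unadjusted p under 0.05, a share near the 17.5% of all tested genes. DESeq2 called 2, against 7.02% of all tested genes, and limma-voom 0. Of the 21, 2 had all cKO libraries above the controls and 2 had all of them below, against 11.2% and 12.2% of all tested genes. These were also the 4 with the lowest p, which are named here. Elmo1, a partner of Dock proteins in Rac activation, averaged 32.3 ± 8.71 CPM in cKO and 64.5 ± 16.5 CPM in control libraries (SD, n = 3 each; 0.501 times the control level, edgeR adjusted p 0.0889). Rac2, a small GTPase of blood cells, differed by 1.56 on the log2 scale (SE 0.438). Ptk2, the focal adhesion kinase, stood at -0.40 (SE 0.137) and Grk3, a receptor kinase, at 0.71 (SE 0.270). The list's median log2 fold change was -0.10.

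In the list of inflammatory and NF-kappaB response genes, 9 of 15 were tested and edgeR called 1, beside 0.552% of all genes. At an unadjusted p under 0.05 edgeR gave 4, against 17.5% of all tested genes. For 4 of the 9 all cKO libraries lay above the controls, against 11.2% of all tested genes. Csf1, the growth factor of macrophages, rose to 28.8 ± 6.52 CPM in cKO libraries, against 11.4 ± 0.965 CPM in controls (SD, n = 3 each), with no overlap (log2 fold change 1.34, SE 0.220, edgeR adjusted p 0.0444). Its adjusted p was 0.0429 without cKO replicate 3, and 0.260, 0.211 and 0.178 without control replicates 1, 2 and 3. DESeq2 called 2 genes of this list, against 7.02% of all tested genes, and limma-voom 0. The cytokine genes Il6, Il1b, Tnf and Il1a, named here outside the fixed rule, had too few reads to test, at most 10 in any library.

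Of 16 genes often found with Cxcl12 in stromal and perivascular cells, 15 were tested. EdgeR called 0, with 8 at an unadjusted p under 0.05, against 17.5% of all tested genes. DESeq2 called 4, against 7.02% of all tested genes, and limma-voom 0. The list's median log2 fold change was 0.45. Vcam1, an adhesion molecule, stood at 11.6, 4.39 and 11.7 CPM in cKO libraries and at 0.980, 1.97 and 2.23 CPM in controls (log2 fold change 2.42, SE 0.462, edgeR adjusted p 0.0538). Igf1, a growth factor of mesenchyme, stood at 79.6, 40.2 and 114 CPM in cKO libraries and at 26.7, 27.3 and 22.4 CPM in controls (1.62, SE 0.338, edgeR adjusted p 0.0808). Both were lowest in cKO replicate 2 among the cKO libraries, as Cxcl12 was. For Pdgfrb, a receptor of pericytes and fibroblasts, the log2 fold change was 0.93 (SE 0.263), and for Angpt1, a vessel-stabilizing ligand of perivascular cells, it was -0.81 (SE 0.213). Pdgfra, a general fibroblast receptor named outside the rule for the ratios that follow, stood at 293, 161 and 174 CPM in cKO libraries and at 220, 205 and 184 CPM in controls, with overlap.

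Marker genes of the cells that could supply these transcripts also varied between libraries, and in bulk samples fewer cells of a type and less RNA per cell cannot be told apart. The labels name epithelial cells, but every library also held abundant transcripts of mesenchyme and odontoblasts such as Col1a1 and Dspp. No marker of the lists for epithelium, mesenchyme, endothelium, pericytes or macrophages was at 0 in any library. The 12 dental epithelium markers summed to 10071 to 15647 CPM in cKO libraries and to 24595 to 40466 CPM in controls, with no overlap. The sum is led by Amelx, an enamel matrix gene that spanned 122 to 4136 CPM in cKO libraries and 8564 to 18617 CPM in controls. The keratin genes Krt5 and Krt14 had log2 fold changes of -0.43 (SE 0.151) and -0.76 (SE 0.202). Of the 12, 9 stood below 0, while 50.8% of all tested genes stood above 0. EdgeR called 0, with 5 at an unadjusted p under 0.05, against 17.5% of all tested genes. DESeq2 called 3, against 7.02% of all tested genes, and limma-voom 0. For 7 of the 12 all cKO libraries lay below the controls, against 12.2% of all tested genes.

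The 12 mesenchyme and fibroblast markers summed to 42685, 23530 and 18528 CPM in cKO replicates 1 to 3 and to 34748, 34669 and 21386 CPM in controls. These sums overlapped and are led by Col1a1, Col1a2 and Dspp, the 3 of the 12 that stood below 0. Their log2 fold changes were -0.09 (SE 0.388), -0.14 (SE 0.366) and -1.49 (SE 1.25). Singly, 9 of the 12 stood above 0, against 50.8% of all tested genes, and the median log2 fold change of the 12 was 0.71. EdgeR called 0 of them, with 7 at an unadjusted p under 0.05, against 17.5% of all tested genes. DESeq2 called 6, against 7.02% of all tested genes, and limma-voom 0. The 8 endothelium markers, led by Cdh5, Pecam1 and Tie1, summed to 363, 322 and 610 CPM in cKO replicates 1 to 3 and to 387, 318 and 364 CPM in controls, so cKO replicate 3 was the highest for them as for Cxcl12. None of the 8 was called by edgeR, DESeq2 or limma-voom, with 0 at an unadjusted p under 0.05, against 17.5% of all tested genes. The 7 pericyte and smooth muscle markers, led by Acta2, Notch3 and Rgs5, summed to 413 to 580 CPM in cKO libraries and to 485 to 588 CPM in controls. EdgeR and DESeq2 called 0 of the 7, with 1 at an unadjusted p under 0.05, against 17.5% of all tested genes.

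The 12 macrophage and leukocyte markers all stood above 0 and summed to 219, 128 and 218 CPM in cKO replicates 1 to 3 and to 72.3, 78.8 and 71.2 CPM in controls. The groups did not overlap, and cKO replicate 2 was the lowest of its group, as for Cxcl12, Pf4 and Ccl9. EdgeR called 1 of the 12, C1qc (log2 fold change 1.22, SE 0.214, adjusted p 0.0487; 0.178 to 0.283 without 1 of the controls and 0.0550 without cKO replicate 2). At an unadjusted p under 0.05 edgeR gave 9 of the 12, against 17.5% of all tested genes. DESeq2 called 8, against 7.02% of all tested genes, and limma-voom 0. For 10 of the 12 all cKO libraries lay above the controls, against 11.2% of all tested genes. The most abundant of these markers were Csf1r, Laptm5 and Cd68. Csf1r, the receptor of Csf1, had 1696, 979 and 2286 reads in cKO libraries and 731, 541 and 479 in controls (edgeR adjusted p 0.0525). Of 6 tested erythroid markers edgeR called 3, all lower in cKO libraries, beside 0.207% of all genes called in that direction. These were Hba-a1, Hbb-bs and Hbb-bt (edgeR adjusted p 0.0487, 0.0487 and 0.0444). Their adjusted p was 0.0594, 0.0701 and 0.0374 without cKO replicate 2, and 0.178 to 0.260 without 1 of the controls. The summed CPM of the erythroid list was 268 to 356 in cKO libraries and 575 to 805 in controls. The part of these cells in the levels of Cxcl12 and the other chemokines was not tested.

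**Figure D4:**
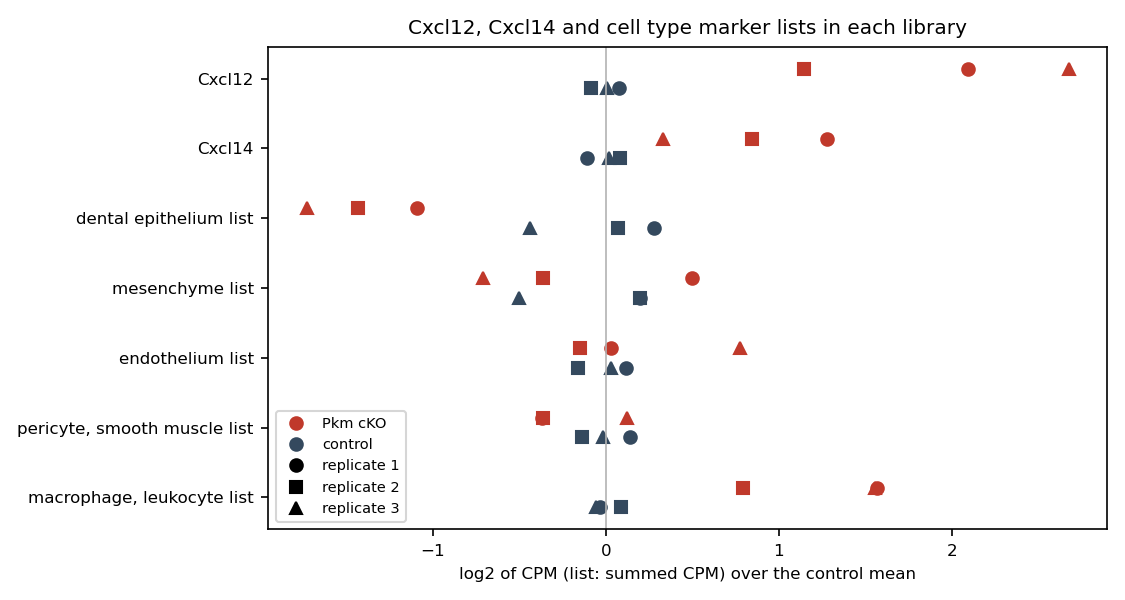
Log2 of Cxcl12 CPM, Cxcl14 CPM and the summed CPM of 5 marker lists over the control mean, for 3 Pkm cKO (red, upper) and 3 control (dark, lower) libraries. The cKO points of Cxcl12, Cxcl14 and the macrophage list lie above their controls, those of the epithelium list below, and the mesenchyme, endothelium and pericyte lists overlap.

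Cxcl12 was also set against stromal and vessel genes of the same library. Cxcl12 CPM per CPM of Pdgfra was 0.177, 0.167 and 0.447 in cKO libraries and 0.0584, 0.0559 and 0.0663 in controls. Per CPM of Pdgfrb it was 0.839, 0.518 and 0.713 in cKO libraries and 0.289, 0.324 and 0.328 in controls. Per CPM of the endothelium sum it was 0.143, 0.0836 and 0.128 in cKO libraries and 0.0332, 0.0361 and 0.0336 in controls. None of these 3 ratios overlapped between the groups. Cxcl12, whose difference between the groups chose the set, is the numerator of each, so the ratios describe it and support nothing.

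Against Col3a1, a fibrillar collagen gene also named outside the rule, the groups did overlap. Cxcl12 per CPM of Col3a1 was 0.0493, 0.0349 and 0.0230 in cKO libraries and 0.0297, 0.0248 and 0.0255 in controls. Col3a1 itself stood at 1054, 772 and 3374 CPM in cKO replicates 1 to 3 and at 431, 463 and 478 CPM in controls. The cKO library with the most Cxcl12 was thus the one with the least Cxcl12 per Col3a1. Cxcl14 per CPM of Krt14, a keratin of basal epithelium, was 0.0634, 0.0662 and 0.0484 in cKO libraries and 0.0148, 0.0213 and 0.0237 in controls. These ratios could not overlap, since all cKO libraries lay above the controls for Cxcl14 and below them for Krt14. Ackr3 per CPM of Krt14 was 0.0656, 0.0872 and 0.0885 in cKO libraries and 0.0487, 0.0628 and 0.0764 in controls. Ackr3 was lower in every cKO library by CPM, but relative to Krt14 the groups overlapped and the cKO mean was the higher one.

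The genes whose pattern was most like that of Cxcl12 were ranked by the root mean square difference of log2 CPM over the 6 libraries, each gene centred on its own mean, among 11121 candidates with at least 5 CPM. Clmp, a junctional adhesion molecule, was nearest at 0.15, followed by Sned1, an extracellular matrix protein (0.17), and Dnm3os, a noncoding RNA that hosts microRNAs (0.18). Ogn, a small leucine-rich proteoglycan, Olfml2b, Entrep2, the adrenergic receptor gene Adra2a and Aldh1a2, a retinoic acid-producing enzyme, completed the 8 nearest, with differences up to 0.22. Clmp stood at 33.7, 19.7 and 45.5 CPM in cKO replicates 1 to 3 and at 9.56, 8.83 and 9.70 CPM in controls. All 8 had cKO libraries above controls, highest in replicate 3 and lowest in replicate 2 of the cKO group. They were picked for nearness to Cxcl12 over these libraries, so this likeness follows from the ranking. Of the rest of the set, only Cxcl14, Cx3cl1 and Ackr3 were among the candidates. Of these, Cxcl14 was the closest to Cxcl12 at 0.85, 688th of the 11121, and Cx3cl1 (1.11) and Ackr3 (1.27) lay farther away. Cxcr4, Cxcl16, Ccl2 and Ccl7 had means under 5 CPM and were not compared.

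The same measure after centring within each group leaves out the difference between the groups that chose Cxcl12. The 5 nearest were then Map3k2, a kinase (0.07), Fap, a surface protease of activated fibroblasts (0.08), Ldb2, a LIM domain-binding cofactor (0.09), Il13ra1, a receptor chain for interleukins (0.09), and Fmod, the proteoglycan fibromodulin (0.09). Fap stood at 10.1, 4.62 and 13.7 CPM in cKO replicates 1 to 3 and at 3.32, 3.11 and 3.63 CPM in controls. Map3k2, by contrast, stood at 25.5, 14.1 and 37.0 CPM in cKO libraries and at 34.0, 34.1 and 36.9 CPM in controls. The 2 genes share the order of the cKO libraries with Cxcl12, as the ranking favours, and differ in how the groups lie. These likenesses rest on 6 libraries, of which cKO replicate 3 differs most from the rest, and they say nothing of a common source.

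**Figure D5:**
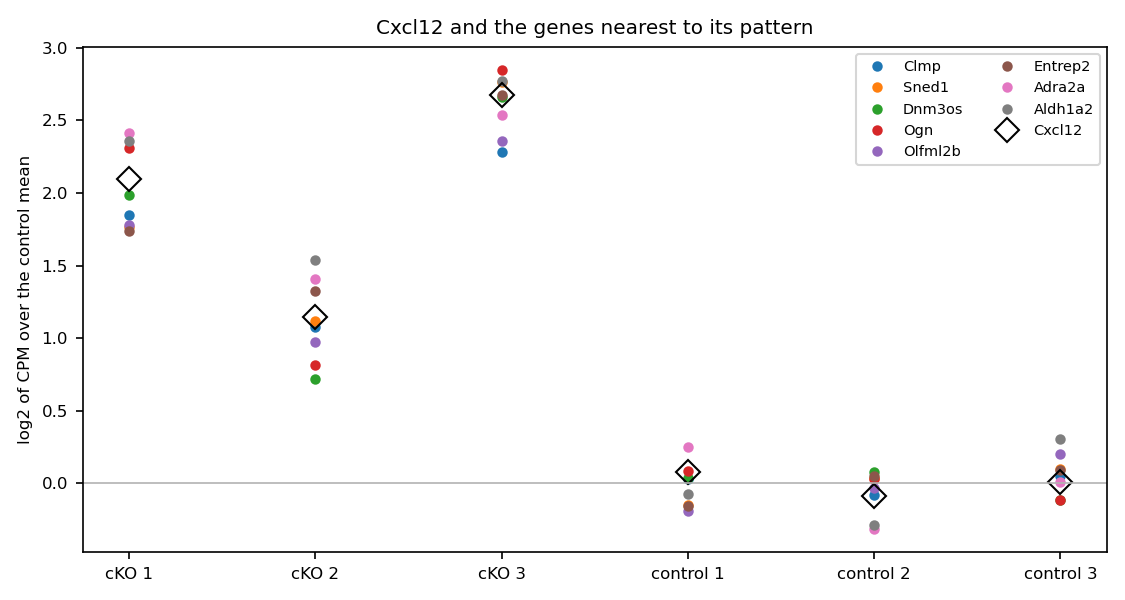
Log2 CPM over the control mean for Cxcl12 (open diamonds) and the 8 genes nearest to its pattern (dots) in each of the 6 libraries, Pkm cKO on the left. In each library the dots gather around Cxcl12, with cKO replicate 3 the highest and cKO replicate 2 the lowest of the cKO group. The genes were picked for this nearness.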

How the data were processed

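RNA of dental epithelial cells was sequenced in 3 Pkm cKO and 3 control libraries. Per the labels' protocols, each library took 200 ng of total RNA. The submitters' processing notes name fastp, HISAT2 and build mm39. The authors deposited whole-number read counts per gene. The sources used here do not give the counter, its strand setting, the annotation or versions. All per-sample columns were used, and no pair of libraries was a duplicate (chi-square per gene at least 26.5).

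Genes were kept by edgeR's filterByExpr, scaled by TMM and compared, cKO over control, with the quasi-likelihood test (edgeR 4.0.16, R 4.3.3, robust, two-sided, Benjamini-Hochberg over 15930 genes, adjusted p under 0.05). SE was taken from the fold change and its F statistic (|log2 fold change|/√F). CPM uses the scaled sizes, and likeness the log2 of CPM (prior count 2). DESeq2 1.42.0 and limma 3.58.1 were alternatives, with other scalings and filters, a replicate block and each library left out. The procedure was also run on counts simulated from its own fitted dispersions, which cannot show how stable the calls in these libraries are. The genes and lists were chosen with earlier results of these data known. Named were the 8 genes, list genes past the threshold or else up to 4 with the lowest p, the 3 most abundant markers of a list, and the nearest genes by pattern. The text marks any other. GENCODE M21 and RefSeq GRCm38.p6, of another build, gave lengths, neighbours and upstream sequences. Counting limits use 3 reads.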

Additional observations from a re-analysis of the deposited data

How the results depend on the processing

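The count of genes past the threshold was 88 (55 higher, 33 lower). It was 55 with DESeq2 size factors, 518 without a filter, 1118 with DESeq2, 2 with limma-voom, 2 in edgeR without robust estimation, and 0 to 640 when 1 library was left out. It was 0 without any 1 of the controls (1532, 1766 and 2495 genes at an unadjusted p under 0.05), 640, 186 and 125 without cKO replicates 1, 2 and 3. Upper-quartile scaling gave 57 higher and 18 lower. The cause was not tested.

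Of the set, 1 gene was past the threshold. The count was 2 without a filter and with DESeq2 (Cxcl12 and Cxcl14), 0 with limma-voom and without robust estimation, and 0 to 2 with 1 library left out. Of the 14 other tested chemokine genes, 0 were past it, against 1 without a filter (Pf4), 4 with DESeq2 and 0 to 2 with 1 library left out.

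The log2 fold change of Cxcl12 ran from 1.71 to 2.42 over 14 alternatives, all above 0, and Ackr3, Cxcl14, Cx3cl1 and Cxcl16 also kept their sign throughout. Cxcr4 and Ccl2 were at -0.01 without cKO replicate 3. Ccl2 was not kept by the filter of 1 CPM in 3 libraries, and Ccl7 was not followed.

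The labels do not say whether the replicate numbers shared between groups pair the samples. Deviations from the group means correlated at 0.235, 0.0150 and 0.215 for replicates 1, 2 and 3, which does not settle it. With the replicate number as a block, 708 genes were past the threshold, 1 of the set and 0 other chemokine genes, and the Cxcl12 log2 fold change was 1.98. Depth limits Ccl2 (169 reads in all), Ccl7 (21) and the untested other chemokine genes, which had at most 76 reads in a library.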
